A study of Mus musculus with 117 samples.

Results

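Epithelial cells are held together by junctions and have an apical and a basal side, and a set of 37 genes that build or control these structures was followed across reprogramming and depletion of the SUMO-conjugating enzyme Ubc9 in mouse cells. The members were named by symbol and found by their gene identifiers, and all 37 were among the 26301 genes of the RNA count table. By role they comprised 9 genes of cell adhesion and desmosomes, 10 of tight junctions, 7 of polarity, trafficking and anchoring, 4 surface proteases and their inhibitors, and 7 regulators of the epithelial state.

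The series compared cells depleted of Ubc9 with controls at several stages between the fibroblast and the pluripotent cell, and 28 of its 117 samples were RNA libraries. A hairpin RNA against Ubc9 (shUbc9) was set against a control hairpin (shCtrl) in embryonic fibroblasts (MEF) of stage E13.5 at passage 1. The same 2 hairpins were used in iPS cells derived from MEF, and in MEF after 4 days (D4) and 7 days (D7) of OKSM, the factor set that combines Oct4 and Klf4 with Sox2 and Myc. In embryonic stem (ES) cells of passages 15 to 20 a small interfering RNA against Ubc9 (siUbc9) was set against a control one (siCtrl). Each of the 10 groups had 3 libraries, except MEF shUbc9 and iPS shCtrl with 2 each. The labels give neither the time since the hairpin or interfering RNA was introduced nor the driver of the OKSM cassette, so the length of depletion may differ between stages, and ES cells differ from the others in the depletion method too. The protocol speaks of triplicate experiments without saying whether these were separate cultures, so the p-values cover the spread among these libraries only, which may be technical. RNA was measured in whole cultures, where more cells of an epithelial kind and more RNA per cell cannot be told apart.

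Fibroblasts are mesenchymal cells that lie apart in matrix, whereas ES and iPS cells grow as tight colonies joined by E-cadherin. On the way from MEF to iPS cells, a mesenchymal-to-epithelial transition is known as an early step: Klf4 can activate Cdh1, and repressors of the Zeb and Snail families, which shut epithelial genes in mesenchymal cells through E-box sequences, are lowered. Adherens junctions (Cdh1 with its catenins) and desmosomes (desmogleins and desmocollins tied to keratin by plakophilins, plakoglobin and desmoplakin) give strength, and tight junctions (claudins, occludin and their scaffolds) seal the layer. Polarity proteins such as Crb3 and Llgl2 mark the apical and basolateral sides, and the Grainyhead-like, Ovol, Esrp and Ets-family members act on transcription or splicing in epithelia.

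Gene counts per library ranged from 11365908 to 58779915. The unit of level is CPM, a gene's reads relative to the effective size of its library, and such values are not corrected for transcript length and so are compared between libraries and never between genes. A single iPS library, shUbc9 replicate 2, stood apart, with the lowest gene count of all and 7.22% of its counts in repeat families, the lowest share. Summed over 10 fibroblast markers, levels were 23458 to 28359 CPM in MEF shCtrl and 52.4 to 66 CPM in ES siCtrl. Over 10 pluripotency markers they were 0.801 to 0.841 CPM in MEF shCtrl and 3709 to 4015 CPM in ES siCtrl. The iPS shCtrl libraries had 3183 and 4003 CPM of pluripotency markers and also 454 and 1189 CPM of fibroblast markers.

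**Figure D1:**
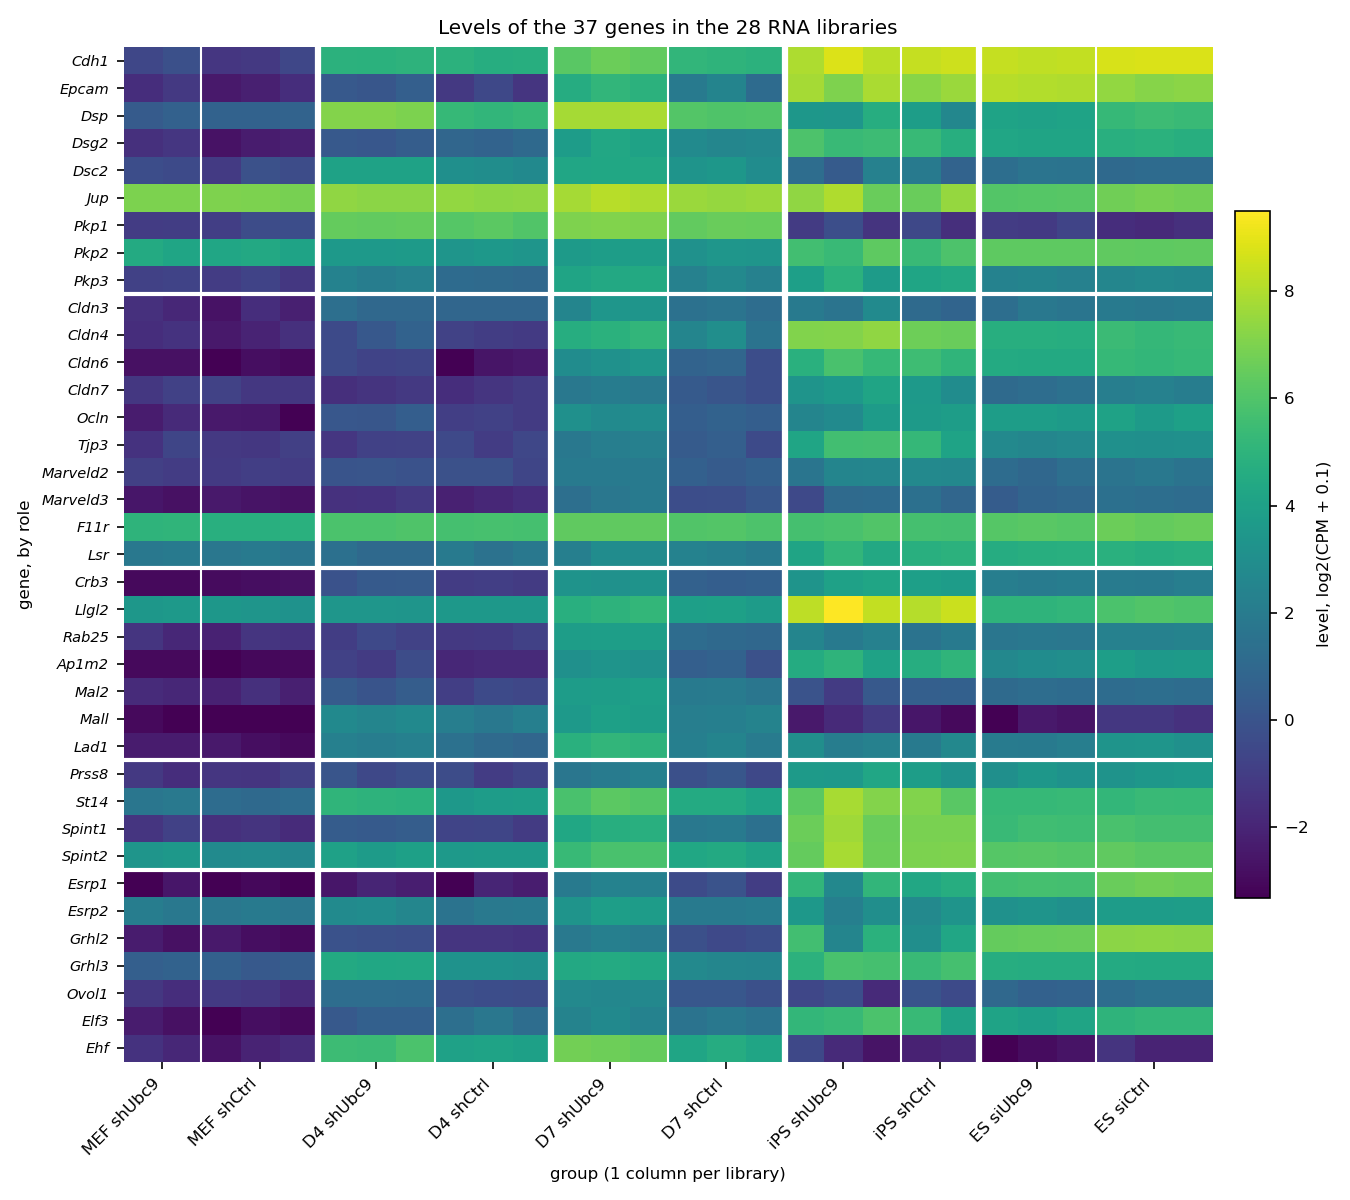
Level of each of the 37 genes (rows, ordered by role) in each of the 28 libraries (columns, grouped; within each stage the depleted group is left of its control), as log2(CPM + 0.1). Most rows are dark in MEF, and in the D7 columns the 3 shUbc9 libraries are lighter than the 3 shCtrl libraries in nearly every row.

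The course in the control cells sets the background for the depletion. In MEF shCtrl 27 of the 37 members averaged under 1 CPM, and the exceptions included Jup (plakoglobin, shared by adherens junctions and desmosomes) with a mean of 125 CPM and F11r (the adhesion molecule JAM-A of tight junctions) with 27.7 CPM. In D4 shCtrl over MEF shCtrl, 25 of the 37 members were called higher (33.3% of all genes tested were), 1 was called lower (33.5% were), 7 were not called and 4 had too few counts to be tested. Here and below, a gene was called at an adjusted p under 0.05 in edgeR's quasi-likelihood test, with p-values adjusted by Benjamini-Hochberg over all genes tested. The largest changes by the naming rule were those of Mall, Ehf and Pkp1. Mall, a membrane protein of the MAL family, had 3.42 to 4.62 CPM in D4 shCtrl and no count in any MEF shCtrl library, at least 175-fold higher than a floor of 3 counts over the MEF group. Ehf, an Ets-family factor of epithelia, was at a mean of 16.3 ± 1.02 CPM (SD, n = 3) in D4 shCtrl and 0.13 ± 0.0706 CPM (n = 3) in MEF shCtrl. Pkp1, a plakophilin of stratified epithelia, was at 65.4 to 76.7 CPM in D4 shCtrl, against a mean of 0.601 CPM in MEF shCtrl. Cdh1 (E-cadherin) was at 25.2 to 29.8 CPM in D4 shCtrl and 0.304 to 0.562 CPM in MEF shCtrl, a log2 fold change of 6.06 ± 0.164 (SE) with an adjusted p of 1.89e-09. The 1 member that fell was Pkp2, with a mean of 10.6 CPM in D4 shCtrl and 19.3 CPM in MEF shCtrl.

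Between D4 and D7 much of the set rose in the controls, including members already called higher at D4 over MEF, such as Epcam and Cldn4. In D7 shCtrl over D4 shCtrl, 25 of 37 members were called higher (10.6% of all genes tested were), 1 was called lower (7.65% were) and 11 were not called. A model fitted over all 28 libraries called 16 higher, and leaving out 1 library in turn gave 18 to 28. Cldn6, a claudin of embryonic epithelia, was at 0.705 to 1.8 CPM in D7 shCtrl, against 0 to 0.0806 CPM in D4 shCtrl. Cldn4 was at 2.82 to 8.01 CPM in D7 shCtrl and 0.349 to 0.472 CPM in D4 shCtrl, and Epcam, an epithelial adhesion molecule, was at 2.17 to 5.4 CPM in D7 shCtrl and 0.296 to 0.595 CPM in D4 shCtrl. In all 3 genes every D7 shCtrl library lay above every D4 shCtrl library (19.3% of all genes tested did), though the D7 shCtrl libraries themselves spread over more than 2-fold. The member that fell was Grhl3, with a log2 fold change of -0.58. Cdh1, already raised over MEF at D4, was not called, with a log2 fold change of 0.27 and an adjusted p of 0.0594.

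From D7 to iPS cells the set split in the controls. In iPS shCtrl over D7 shCtrl, 25 members were called higher (36.2% of all genes tested were) and 6 lower (37.6% were). The 6 that fell were Dsp, Dsc2 and Pkp1 of the desmosome, Mal2 and Mall of the MAL family, and Ehf. Pkp1 averaged 0.409 CPM in iPS shCtrl and 90.6 CPM in D7 shCtrl, Ehf 0.151 CPM in iPS shCtrl and 20.5 CPM in D7 shCtrl, and Mall 0.046 CPM in iPS shCtrl and 4.71 CPM in D7 shCtrl. Pkp1, Ehf and Mall were thus high at D4 and D7 and under 1 CPM both in MEF and in iPS cells. In ES siCtrl over MEF shCtrl, 34 members were called higher (47.7% of all genes tested were), Pkp1 was called lower (42.8% were), Jup was not called and Ehf had too few counts to be tested. The largest rises there were those of Esrp1, an epithelial splicing factor, at a mean of 99.7 CPM in ES siCtrl against 1 count over the 3 MEF shCtrl libraries, and of Grhl2 and Cldn6, at 158 and 37.3 CPM in ES siCtrl against 6 and 3 counts in MEF shCtrl. These 4 comparisons share control libraries with each other and with the depletion comparisons, so they are not independent of them.

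Without OKSM, depletion of Ubc9 left most of the set low. In MEF shUbc9 over MEF shCtrl, 3 of 37 members were called higher (3.83% of all genes tested were), none lower (2.21% were), 19 were not called and 15 had too few counts to be tested. No member was lower at an unadjusted p under 0.05, and DESeq2 also called 3 higher and 0 lower. Spint2, a Kunitz-type inhibitor of surface serine proteases, was at 10.3 and 11.5 CPM in MEF shUbc9, against 6.91, 7.27 and 5.94 CPM in MEF shCtrl. St14 (matriptase, a membrane protease that such inhibitors restrain) was at 3.15 and 3.59 CPM in MEF shUbc9, against 2.18, 1.96 and 2.22 CPM in MEF shCtrl. F11r was at 32.4 and 33.4 CPM in MEF shUbc9, against 26.9, 27.5 and 28.5 CPM in MEF shCtrl. In each of these 3 genes both shUbc9 libraries lay above every shCtrl library (20.8% of all genes tested did), and the log2 fold changes were 0.70 ± 0.104 for Spint2, 0.66 ± 0.136 for St14 and 0.24 ± 0.0602 for F11r (SE), with adjusted p of 0.00536, 0.0218 and 0.0467. The calls depended on single libraries: there were 0 without shUbc9 replicate 3, 1 without shUbc9 replicate 1 or shCtrl replicate 3, and 0 in the model over all libraries. Cdh1 was at 0.565 and 0.767 CPM in MEF shUbc9 and 0.304 to 0.562 CPM in MEF shCtrl, a log2 fold change of 0.72 ± 0.32 with an adjusted p of 0.241. Epcam and Grhl2, among the untested genes, averaged 0.278 and 0.0731 CPM in MEF shUbc9 and 0.141 and 0.0491 CPM in MEF shCtrl. Macrophage markers moved with the depletion in MEF, summing to 330 and 338 CPM in MEF shUbc9 and 162 to 230 CPM in MEF shCtrl, with all 10 markers at a mean of at least 1 CPM in both and 8 called higher. Their part in the 3 calls was not tested.

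After 4 days of OKSM, Ubc9 depletion raised part of the set, and unevenly. More members could be tested than in MEF, so the counts of calls are not directly comparable. The direct test against the MEF response is given below. In D4 shUbc9 over D4 shCtrl, 20 of 37 members were called higher (27.2% of all genes tested were), 3 were called lower (26.1% were), 13 were not called and 1, Esrp1, had too few counts to be tested. The higher members were at least 2-fold up in 16 cases. For this count and the 2-fold counts at D7 and in ES cells below, the share of all genes changed as much was not computed. Over all 37 members the median log2 fold change without a filter on counts was 0.69, against -0.01 over all genes tested. By role, 5 of 9 adhesion and desmosome genes rose, 3 of 10 tight junction genes, 5 of 7 polarity, trafficking and anchoring genes, 2 of 4 protease and inhibitor genes and 5 of 7 regulators. The tight junction genes were thus called higher about as often as all genes tested (27.2%), and 1 of them was called lower.

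Dsp (desmoplakin, which ties desmosomes to keratin filaments) was at 139, 138 and 126 CPM in D4 shUbc9, against 38.3, 35.3 and 39 CPM in D4 shCtrl. The groups were well apart, with a log2 fold change of 1.84 ± 0.0718 and an adjusted p of 1.15e-06. Ehf was at 44.2, 43.5 and 58.6 CPM in D4 shUbc9, against 15.9, 17.4 and 15.5 CPM in D4 shCtrl (log2 fold change 1.58 ± 0.118). Ovol1, a zinc finger repressor that counters the mesenchymal state, was at 2.34, 2.33 and 2.22 CPM in D4 shUbc9, against 0.773, 0.722 and 0.698 CPM in D4 shCtrl (1.66 ± 0.155). The next genes by size among those of at least 1 CPM in a group were close to 1 CPM even after the rise. Crb3, the small Crumbs protein of the apical membrane, was at 0.852, 1.14 and 1.18 CPM in D4 shUbc9, against 0.386, 0.425 and 0.376 CPM in D4 shCtrl. Epcam was at 1.11, 0.989 and 1.38 CPM in D4 shUbc9, against 0.344, 0.595 and 0.296 CPM in D4 shCtrl. Cldn4 was at 0.639, 1.07 and 1.52 CPM in D4 shUbc9, against 0.472, 0.404 and 0.349 CPM in D4 shCtrl. In all 3 genes every depleted library lay above every control library (31.6% of all genes tested did), and log2 fold changes were 1.40 for each. Spint1, the other Kunitz-type inhibitor of the set, was at 1.16 to 1.29 CPM in D4 shUbc9 and 0.376 to 0.531 CPM in D4 shCtrl, and Ocln (occludin) at 0.973 to 1.32 CPM in D4 shUbc9 and 0.376 to 0.467 CPM in D4 shCtrl.

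Among the other members called higher at D4 were Dsc2 (a desmosomal cadherin, log2 fold change 1.14), Pkp3 (1.22), Grhl2 and Grhl3 (Grainyhead-like factors, 1.45 and 1.19), Esrp2 (a splicing factor, 0.97), St14 (1.26), Lad1 (ladinin, an anchoring filament protein, 1.10), Ap1m2 (the epithelial subunit of a basolateral sorting adaptor, 1.38), Mal2 (0.99), Mall (0.62) and Pkp1 (0.31). The calls of Grhl2, Mall and Pkp1 were lost in the model over all libraries, with adjusted p of 0.101, 0.0726 and 0.191. Cldn6 had the largest fitted change, 3.25 ± 0.448, but averaged 0.559 CPM in D4 shUbc9 and had 6 counts in all over the D4 shCtrl libraries. Cdh1 itself did not pass the test at D4. It was at 30, 29 and 31.2 CPM in D4 shUbc9, against 29.8, 25.2 and 26.7 CPM in D4 shCtrl, groups that overlapped, with a log2 fold change of 0.15 ± 0.0776 and an adjusted p of 0.138. The 3 members that fell were Elf3, Dsg2 and Lsr. Elf3, an Ets-family factor, was at 1.09, 1.41 and 1.43 CPM in D4 shUbc9, against 2.49, 3.25 and 2.34 CPM in D4 shCtrl (log2 fold change -1.05 ± 0.184, adjusted p 0.00129). Dsg2, a desmoglein, was at 1.02 to 1.29 CPM in D4 shUbc9 and 1.61 to 1.99 CPM in D4 shCtrl (-0.66 ± 0.168), and Lsr, a protein of the corners where cells meet, was at 1.97 to 2.58 CPM in D4 shUbc9 and 2.78 to 3.78 CPM in D4 shCtrl (-0.59 ± 0.166). The call of Lsr was lost without D4 shCtrl replicate 1 or 3 and in the model over all libraries.

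After 7 days of OKSM the rise reached nearly the whole set. In D7 shUbc9 over D7 shCtrl, 36 of 37 members were called higher (27.3% of all genes tested were) and none lower (26.3% of all genes tested were), and all 37 passed the filter on low counts. None was lower at an unadjusted p under 0.05, and DESeq2 called all 37 higher. The rise was at least 2-fold in 31 members, and in 36 every shUbc9 library lay above every shCtrl library (30.8% of all genes tested did). The median log2 fold change over the 37 was 1.89, against 0.01 over all genes tested. Summed over the members, levels were 1272 to 1464 CPM in D7 shUbc9 and 581 to 620 CPM in D7 shCtrl. Leaving out 1 library in turn gave 35 to 37 members higher and 0 lower. When libraries were scaled by their sizes alone, the median of all genes moved to 0.21 and 71.5% of all called genes were higher, against 50.9% with TMM scaling. No member changed sign under either other scaling.

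**Figure D2:**
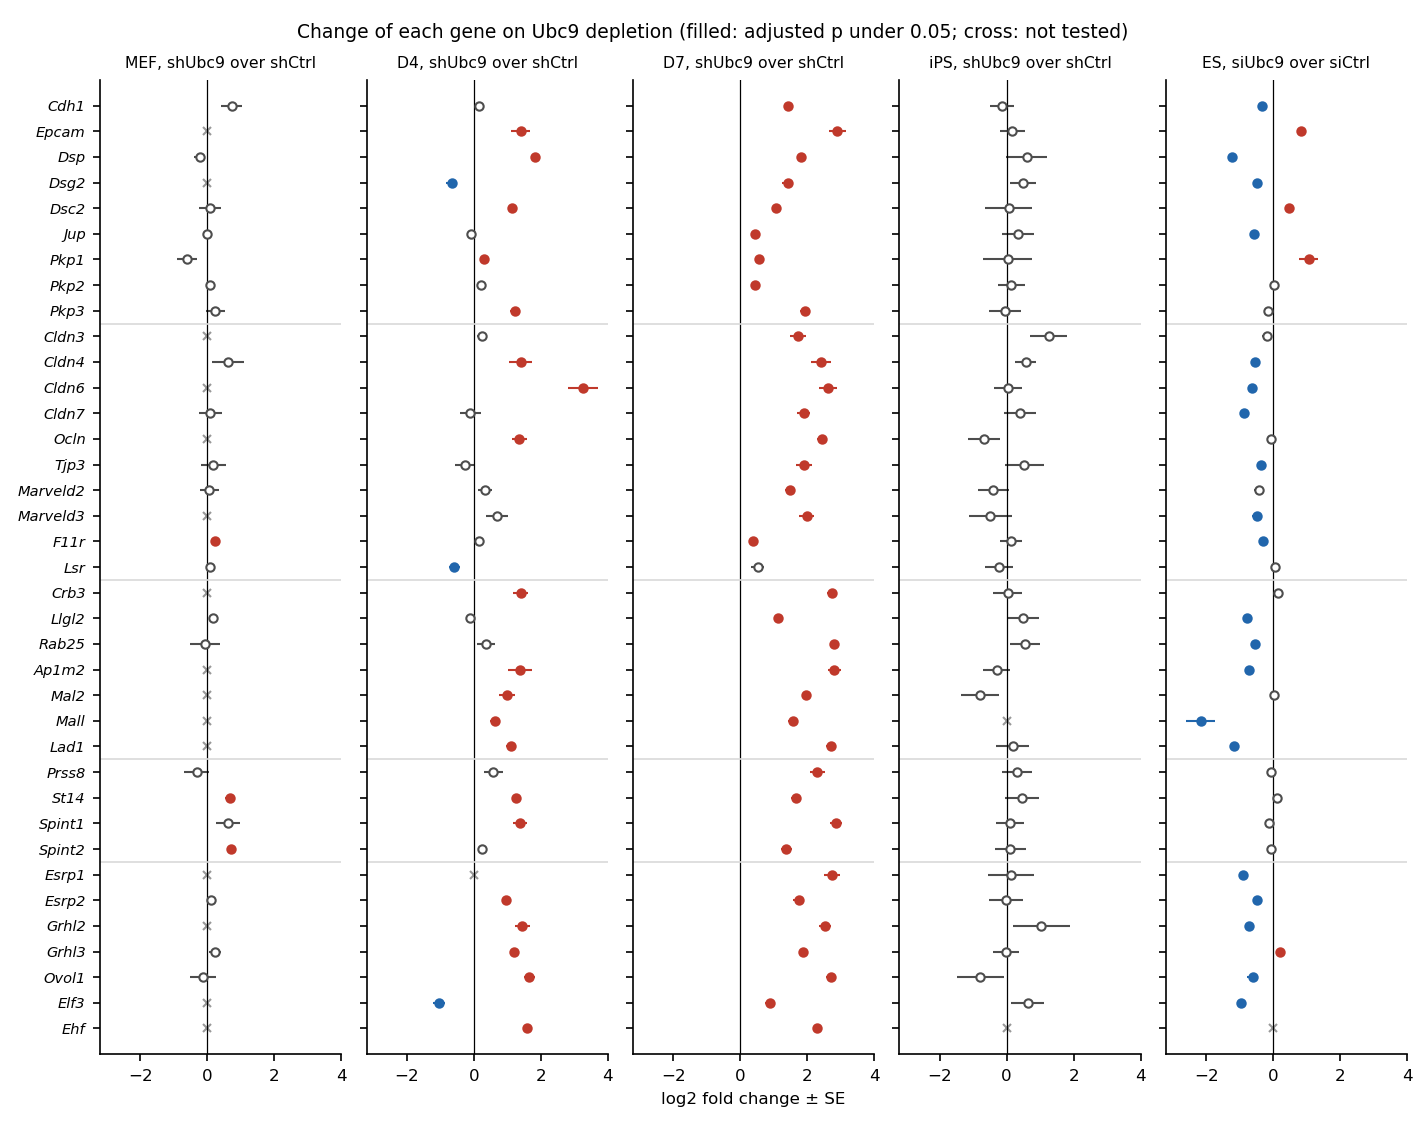
Fitted log2 fold change ± SE of each member on Ubc9 depletion, 1 panel for each stage and cell type. Red points were called higher and blue points lower at an adjusted p under 0.05, open points were not called, and crosses mark genes with too few counts to be tested. At D7 36 points are red, in iPS cells none is filled, and in ES cells 20 are blue.

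In the adhesion and desmosome group all 9 genes rose at D7, with log2 fold changes between 0.43 and 2.90. Epcam had the largest change of the whole set. It was at 24.5, 34.2 and 29.8 CPM in D7 shUbc9, against 3.86, 5.4 and 2.17 CPM in D7 shCtrl, a log2 fold change of 2.90 ± 0.256 with an adjusted p of 3.2e-05. Every depleted library was far above every control library. Cdh1 was at 75.8, 98.6 and 86.8 CPM in D7 shUbc9, against 34.7, 32.6 and 30.6 CPM in D7 shCtrl (1.42 ± 0.105, adjusted p 1.23e-05). Dsp was at 220, 222 and 232 CPM in D7 shUbc9, against 67.5, 61.8 and 64 CPM in D7 shCtrl (1.81 ± 0.0666). The desmoplakin libraries were tight within each group and far apart between them. Dsg2, lower at D4, was at 13.6 to 20.7 CPM in D7 shUbc9 and 5.82 to 7.05 CPM in D7 shCtrl (1.42 ± 0.164). The smallest rises were those of Jup, at 221 to 284 CPM in D7 shUbc9 and 177 to 192 CPM in D7 shCtrl (0.43 ± 0.0924), and of Pkp2, at 12.4 to 14.2 CPM in D7 shUbc9 and 8.94 to 10.6 CPM in D7 shCtrl (0.45 ± 0.112). The call of Pkp2 was lost without D7 shCtrl replicate 1, and those of Pkp2 and Jup in the model over all libraries. Of the rest, Pkp3 changed by 1.93, Dsc2 by 1.08 and Pkp1 by 0.55 on the log2 scale.

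Of the 10 tight junction genes 9 rose at D7. Ocln was at 8.44, 6.99 and 7.53 CPM in D7 shUbc9, against 1.33, 1.56 and 1.35 CPM in D7 shCtrl (2.43 ± 0.146, adjusted p 4.34e-06). Cldn4 was at 25.2, 29.5 and 35.1 CPM in D7 shUbc9, against 5.61, 8.01 and 2.82 CPM in D7 shCtrl (2.41 ± 0.287), and Cldn6 was at 7.34 to 10.6 CPM in D7 shUbc9 and 0.705 to 1.8 CPM in D7 shCtrl (2.62 ± 0.261). The claudins were apart in every library although the controls spread widely. Cldn7 and Cldn3 changed by 1.90 and 1.72, the scaffold gene Tjp3 (ZO-3) by 1.90, and Marveld2 (tricellulin) and Marveld3, which share occludin's membrane domain, by 1.48 and 1.99. F11r, well expressed at each stage, rose least, to 82 to 82.5 CPM in D7 shUbc9, against 59.6 to 68.3 CPM in D7 shCtrl (0.37 ± 0.0711). The 1 member not called was Lsr, at 4.59, 7.34 and 7.25 CPM in D7 shUbc9 and 5, 4.59 and 3.7 CPM in D7 shCtrl. Its groups overlapped, and its log2 fold change was 0.52 ± 0.202 with an adjusted p of 0.0576.

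All 7 genes of polarity, trafficking and anchoring rose at D7, by 1.12 to 2.81. Ap1m2 was at 8.44, 9.91 and 8.98 CPM in D7 shUbc9, against 1.37, 1.53 and 0.823 CPM in D7 shCtrl (2.81 ± 0.185, adjusted p 7.02e-06). Rab25, an epithelial GTPase of apical recycling endosomes, was at 13.9, 14.5 and 14.5 CPM in D7 shUbc9, against 2.21, 2.01 and 1.88 CPM in D7 shCtrl (2.80 ± 0.116). Crb3 was at 9.67, 8.87 and 9.44 CPM in D7 shUbc9, against 1.47, 1.35 and 1.41 CPM in D7 shCtrl (2.73 ± 0.126). Lad1 was at 27.7, 34.6 and 30.8 CPM in D7 shUbc9, against 4.59, 5.52 and 4 CPM in D7 shCtrl (2.71 ± 0.14). In these 4 genes the groups were far apart, and libraries within a group lay close together. Mal2 and Mall, at 13.7 to 14.8 and 12 to 15.4 CPM in D7 shUbc9, were at 3.17 to 3.99 and 4.4 to 5.17 CPM in D7 shCtrl. Llgl2, a basolateral polarity protein, was at 27 to 35.8 CPM in D7 shUbc9 and 13.1 to 15.5 CPM in D7 shCtrl.

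The 4 protease and inhibitor genes and the 7 regulators all rose at D7. Spint1 was at 19.9, 26.3 and 26.9 CPM in D7 shUbc9, against 3.47, 3.87 and 2.59 CPM in D7 shCtrl (2.86 ± 0.175, adjusted p 4.88e-06). Its target proteases Prss8 (prostasin) and St14 changed by 2.30 ± 0.231 and 1.67 ± 0.142, and Spint2 by 1.37 ± 0.161. Among the regulators, Esrp1 was at 3.74, 5.08 and 4.72 CPM in D7 shUbc9, against 0.652, 0.87 and 0.411 CPM in D7 shCtrl (2.74 ± 0.236). Ovol1 was at 6.4, 6.02 and 6.18 CPM in D7 shUbc9, against 1, 1.02 and 0.764 CPM in D7 shCtrl (2.70 ± 0.151). Both genes were at or under about 1 CPM in each control library. Ehf was at 108, 101 and 90.2 CPM in D7 shUbc9, against 18.6, 24.1 and 18.7 CPM in D7 shCtrl (2.29 ± 0.118). Grhl2, Grhl3 and Esrp2 changed by 2.52, 1.86 and 1.74, and Elf3, lower at D4, was at 5.1 to 6.66 CPM in D7 shUbc9 and 2.82 to 3.39 CPM in D7 shCtrl (0.90 ± 0.152).

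**Figure D3:**
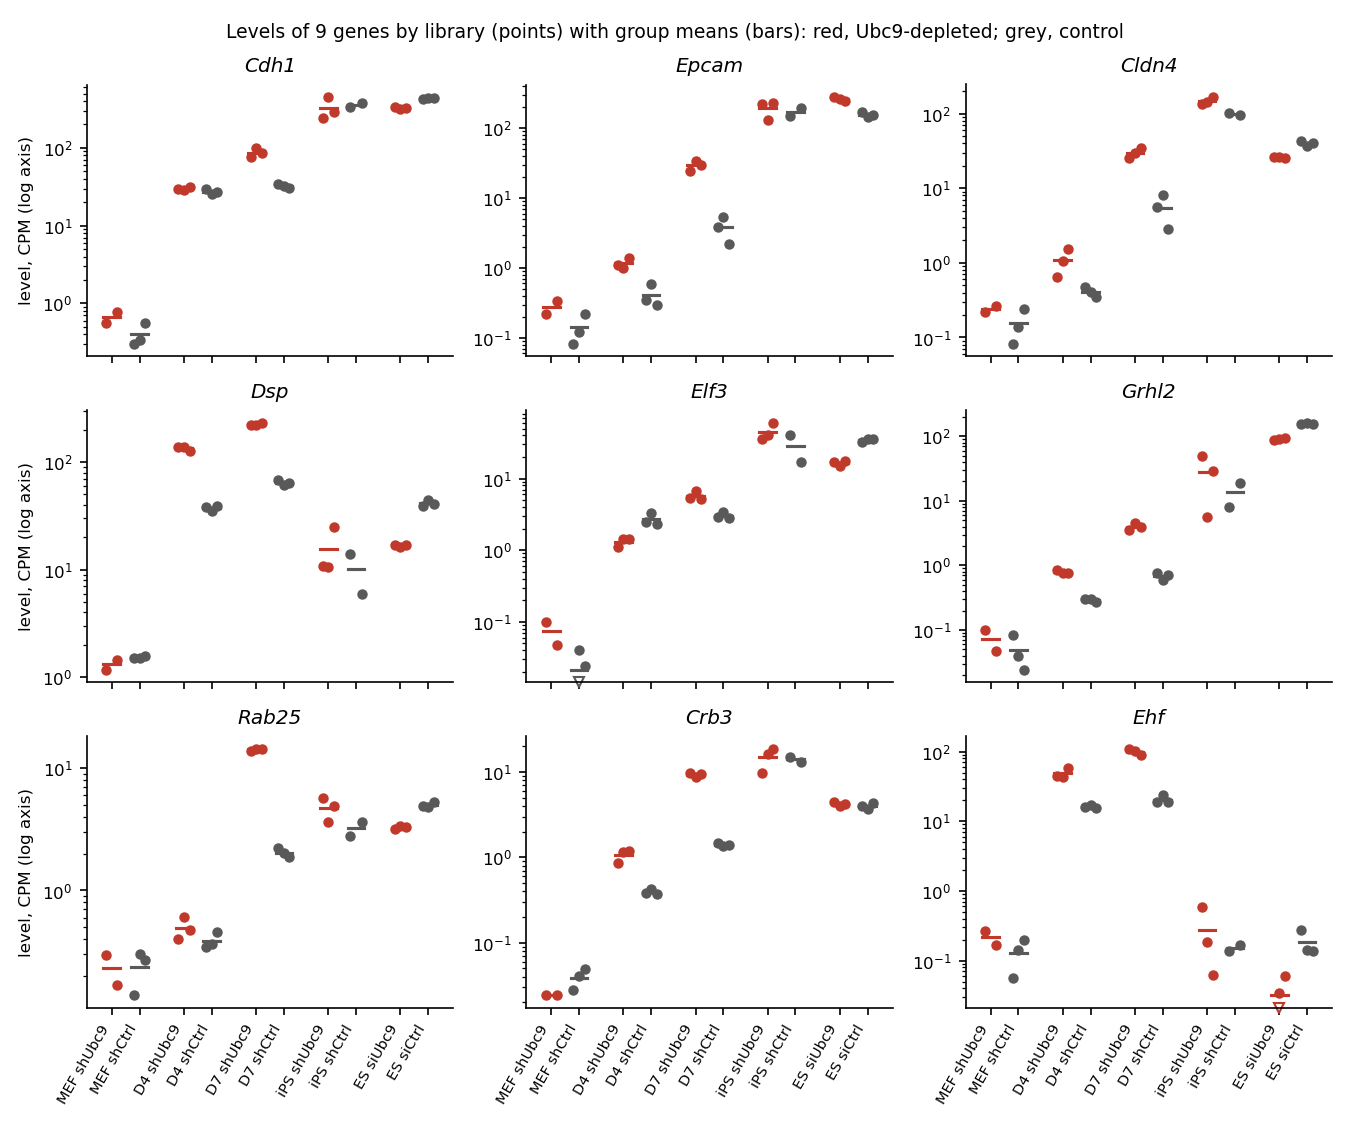
CPM on a log axis for 9 members in every library (points) with group means (bars), depleted groups in red and controls in grey, each depleted group left of its control; open triangles mark libraries at 0. For Epcam, Cldn4, Rab25 and Crb3 the red points at D7 lie clear of the grey ones, whereas Cdh1 separates at D7 but not at D4, and Ehf is high at D4 and D7 only.

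Because Zeb and Snail proteins act on epithelial genes through the E-box CACCTG, the DNA just upstream of the members named at D7 is shown. RefSeq windows of 300 bases (250 before to 50 after each start, build GRCm38.p6) were at hand for 21 of the 37 members. Of the 8 members with the largest changes at D7, 6 had a window, and the 200 bases before their start are printed 5′ to 3′ on the gene's strand, with CACCTG and its reverse complement CAGGTG in capitals.
Epcam, chr17:87635779-87635978, plus strand: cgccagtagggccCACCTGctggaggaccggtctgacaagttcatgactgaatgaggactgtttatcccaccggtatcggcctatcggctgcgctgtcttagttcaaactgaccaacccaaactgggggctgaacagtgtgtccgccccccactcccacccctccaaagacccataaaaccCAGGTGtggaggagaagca
Spint1, chr2:119237160-119237359, plus strand: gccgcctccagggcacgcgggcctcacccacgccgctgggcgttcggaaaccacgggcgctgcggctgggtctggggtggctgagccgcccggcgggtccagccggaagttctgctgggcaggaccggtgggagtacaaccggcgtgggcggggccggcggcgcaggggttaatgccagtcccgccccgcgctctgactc
Ap1m2, chr9:21312334-21312533, minus strand: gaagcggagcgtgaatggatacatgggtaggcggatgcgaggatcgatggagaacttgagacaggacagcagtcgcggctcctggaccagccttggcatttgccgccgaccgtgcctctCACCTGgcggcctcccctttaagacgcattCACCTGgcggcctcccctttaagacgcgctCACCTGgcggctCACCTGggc
Rab25, chr3:88548280-88548479, minus strand: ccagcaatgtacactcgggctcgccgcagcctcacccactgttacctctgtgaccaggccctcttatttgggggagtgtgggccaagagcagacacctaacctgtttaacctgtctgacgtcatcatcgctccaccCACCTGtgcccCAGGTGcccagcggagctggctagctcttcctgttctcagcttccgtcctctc
Crb3, chr17:57062001-57062200, plus strand: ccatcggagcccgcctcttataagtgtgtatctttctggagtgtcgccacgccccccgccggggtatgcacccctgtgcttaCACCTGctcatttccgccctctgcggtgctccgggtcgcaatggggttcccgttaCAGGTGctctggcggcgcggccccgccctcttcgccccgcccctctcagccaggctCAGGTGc
Lad1, chr1:135818398-135818597, plus strand: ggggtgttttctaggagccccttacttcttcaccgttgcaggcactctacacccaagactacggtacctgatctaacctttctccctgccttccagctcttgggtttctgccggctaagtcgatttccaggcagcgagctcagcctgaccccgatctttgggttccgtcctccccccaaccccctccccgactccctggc
Of these 6 stretches 4 hold the E-box, 2 to 4 times each, and those of Spint1 and Lad1 hold none. Over whole windows, CACCTG on either strand was found in 17 of the 21 members (81%), against 22.6% of all 27025 genes of the table. In 11 members a window held it more than once. In Ap1m2 all 4 copies lie between positions -81 and -4, counted from the start, and in Cldn4 1 copy lies on each side of the start, from -14 to -9 and from 12 to 17. Another E-box, CAGCTG, was in 2 of 21 members (9.52%), against 18.3% of all genes, and CACGTG in 3 (14.3%), against 8.09%. A motif bound by Klf proteins, GGGNGTGG, was in 10 members (47.6%), against 19.7% of all genes, the Grainyhead-like motif AACCNGTT in 1, Rab25 (4.76%), against 2.35%, and the AP-1 motif TGANTCA in 4 (19%), against 8.97%. All motifs were searched on both strands, 1 match of TGANTCA overlapped a CACCTG, and no match of the other motifs did. Windows of the members were 60.7% G or C on average, against 53.8% over all windows. The motifs were chosen with the results known, so these are descriptions of sequence with no test, and a match is not a bound site.

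Whether depletion acted differently at D7 and D4 was tested directly, as the difference of the 2 log2 fold changes. The change was larger at D7 in 27 of 37 members (6.04% of all genes tested were called in that direction), smaller in 0 (6.24% were), and not called in 10. None was smaller at an unadjusted p under 0.05, and DESeq2 also called 27 larger and 0 smaller. Leaving out 1 library in turn gave 20 to 29, and a model over all libraries gave 10. The largest differences were those of Esrp1 at 2.56 ± 0.741, Rab25 at 2.44 ± 0.259, Tjp3 at 2.17 ± 0.405 and Dsg2 at 2.10 ± 0.248 on the log2 scale. Rab25 shows the pattern: it was at 0.402, 0.604 and 0.478 CPM in D4 shUbc9, against 0.344, 0.361 and 0.457 CPM in D4 shCtrl, groups that overlapped, and the groups were far apart at D7. Esrp1 had only 11 counts over the D4 shCtrl libraries, and its call was lost without any 1 of 7 libraries at D4 or D7. In the model over all libraries the calls of Esrp1 and Tjp3 were lost, with adjusted p of 0.383 and 0.0512. Taken by call, 20 members were higher at both times, 14 were higher at D7 and not called or tested at D4, Cdh1 among them, and 2, Dsg2 and Elf3, were lower at D4 and higher at D7. The shares of all genes with such joint calls were not computed, so these 3 counts only describe the members. Of the members higher at both times, 7 showed no called difference: Epcam, Dsp, Dsc2, Pkp1, Cldn4, Cldn6 and St14. This does not make their changes equal. For Epcam the difference was 1.52 ± 0.481, just short of the threshold in the edgeR interaction test (adjusted p 0.0579), and for Cldn4 it was 1.02 ± 0.584. For Dsp the difference was -0.02 ± 0.0942, the value nearest to 0 of the set.

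**Figure D4:**
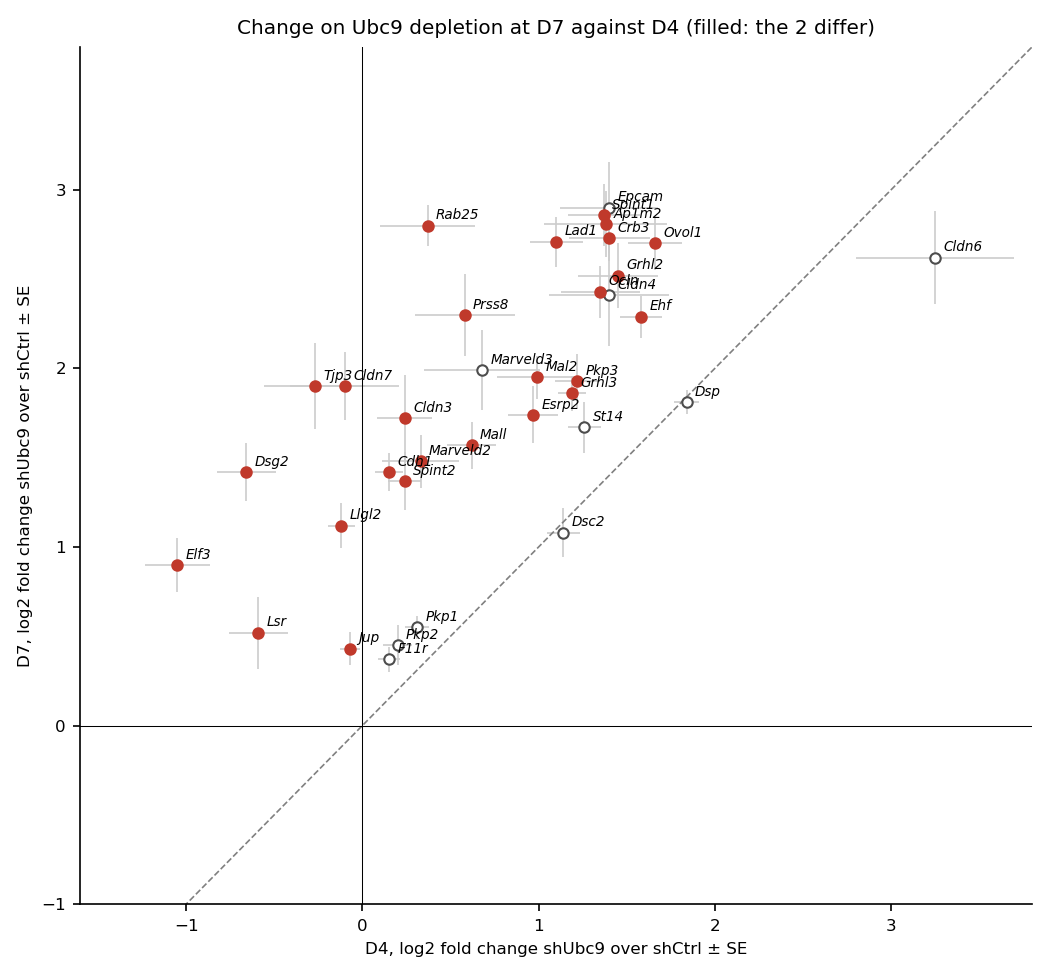
Log2 fold change on Ubc9 depletion at D7 (vertical) against D4 (horizontal), each ± SE, for the 36 members tested at both times; the dashed line marks equal change. The 27 members with a larger change at D7 include Esrp1, which is not drawn because it was not tested at D4; filled points were called different. Dsp and Dsc2 lie close to the line, and Elf3, Dsg2 and Lsr, lower at D4, lie farthest to the left and above 0 on the D7 axis.

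At D4 the change was also set against that in MEF. It was larger at D4 in 8 members (17% of all genes tested were called so) and smaller in 4 (19.6%), 24 were not called, and Esrp1 was not tested. These counts were not far from the shares over all genes and are not read as a trait of the set. Among the members called, Dsp had the largest positive difference, 2.05 ± 0.157, with 1.18 and 1.46 CPM in MEF shUbc9 and 1.52 to 1.59 CPM in MEF shCtrl before OKSM, and Ovol1 differed by 1.77 ± 0.366. Elf3 and Dsg2 differed by -2.57 ± 0.917 and -2.21 ± 0.426, from 3 and 12 counts over the MEF shCtrl libraries. The count of 8 was 5 without MEF shUbc9 replicate 1, the count of 4 was 1 or 2 without any 1 of 6 libraries (MEF shCtrl replicate 3, MEF shUbc9 replicates 1 and 3, D4 shCtrl replicate 1, D4 shUbc9 replicates 2 and 3), and the call of Elf3 was lost without any 1 of 7 libraries. In the model over all libraries 2 members were larger and 1 smaller, and with library sizes alone 1 was smaller, the call of Elf3 being lost in both.

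Other genes of the same pathways changed in both directions. The shares of all genes tested that rose and fell were 27.3% and 26.3% at D7, and 27.2% and 26.1% at D4. Of 31 further junction genes, 14 rose and 8 fell in D7 shUbc9 over D7 shCtrl, with a median log2 fold change of -0.00 over all 31, and at D4 6 rose and 7 fell. Nectin4, an adhesion molecule that pairs cells before cadherins, was at 11.7 to 16.4 CPM in D7 shUbc9 and 2.23 to 3 CPM in D7 shCtrl (log2 fold change 2.45), and Dsg3, a desmoglein of stratified epithelia, was at 6.57 to 8.38 CPM in D7 shUbc9 and 0.588 to 1.38 CPM in D7 shCtrl (2.90). The desmocollin Dsc3 changed by 2.05 at D4. Cdh3 (P-cadherin) went the other way, at 9.59 to 11.5 CPM in D7 shUbc9 and 52.5 to 60.1 CPM in D7 shCtrl, with log2 fold changes of -1.41 at D4 and -2.45 at D7. Of 20 further polarity and trafficking genes, 5 rose and 8 fell at D7, and 4 rose and 8 fell at D4. Mal, the founding member of its family, changed by 1.30 at D4 and 2.12 at D7 and the kinase gene Prkcz by 1.40 at D7, whereas Crb2, another Crumbs gene, changed by -1.75 at D4 and was lower at D7 too, and Llgl1 by -0.52 at D4.

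Of 10 other epithelial regulators and keratins, 6 rose and 1 fell at D7 (27.3% and 26.3% of all genes tested did), and 1 rose and 3 fell at D4 (27.2% and 26.1% did). Krt8, a keratin of simple epithelia, was at 444, 448 and 474 CPM in D7 shUbc9, against 126, 168 and 105 CPM in D7 shCtrl (1.78), and was at 75.1 to 96.4 CPM in D4 shUbc9 and 73.3 to 84.1 CPM in D4 shCtrl. Grhl1 rose at both times (1.67 at D4 and 2.16 at D7), Elf5 rose at D7 (2.20), and Krt18 and Krt19 fell at D4 (-0.70 and -0.40). Of 13 genes of the mesenchymal transition, 10 fell and 0 rose at D4, and 8 fell and 1 rose at D7. Cdh2 (N-cadherin) was at 35.5 to 40.2 CPM in D4 shUbc9 and 60.4 to 68.1 CPM in D4 shCtrl, and at 21.8, 25.2 and 21.7 CPM in D7 shUbc9, against 63.8, 58.8 and 63 CPM in D7 shCtrl. Zeb1 was at 97.4 to 109 CPM in D7 shUbc9 and 164 to 193 CPM in D7 shCtrl (-0.79), and Zeb2 at 98.5 to 109 CPM in D7 shUbc9 and 177 to 210 CPM in D7 shCtrl (-0.91). Snai1 and Snai2 changed by -1.01 and -0.68 at D4. In the test of D7 against D4 responses neither was called. There Zeb1, Zeb2 and Cdh2 had a more negative change at D7. Twist2, also a fibroblast marker, had a more positive one, with a difference of 1.11 ± 0.271 and an adjusted p of 0.0175. Vim was at 1316 to 1426 CPM in D7 shUbc9 and 1399 to 1631 CPM in D7 shCtrl, groups that overlapped.

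Markers of other cell types were also followed, beside shares of all genes called higher and lower of 27.3% and 26.3% at D7. At D7, 7 of 10 keratinocyte markers were called higher and 1 lower, and their sum was 565 to 593 CPM in D7 shUbc9 and 173 to 229 CPM in D7 shCtrl; Krt14 held most of it, with 346 to 378 CPM in D7 shUbc9 and 108 to 156 CPM in D7 shCtrl. The late markers Lor and Ivl stayed under 1 CPM at D7. Of 10 pluripotency markers 9 were called higher, and their sum was 155 to 197 CPM in D7 shUbc9 and 44.3 to 57.1 CPM in D7 shCtrl, with Pou5f1, whose counts may include the cassette, at a mean of 91.1 CPM in D7 shUbc9 and 35.2 CPM in D7 shCtrl. Of 10 fibroblast markers 9 were called lower and 1 higher, and their sum was 18728 to 22869 CPM in D7 shUbc9 and 40811 to 55873 CPM in D7 shCtrl. At D4 5 of 10 keratinocyte markers and 4 of 10 pluripotency markers were called higher (27.2% of all genes tested were), and 8 of 10 fibroblast markers lower (26.1% were). At D4 9 of 10 macrophage markers were called higher, with sums of 224 to 246 CPM in D4 shUbc9 and 143 to 150 CPM in D4 shCtrl, and at D7 1 was, with overlapping sums of 168 to 206 CPM in D7 shUbc9 and 152 to 266 CPM in D7 shCtrl. The part of these cell types in the members' rise was not tested.

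In iPS cells no member was called. The edgeR test called 0 of 37 members in either direction among 17294 genes tested (0% of all genes called), and 35 members were tested, Ehf and Mall having too few counts. At an unadjusted p under 0.05 there were 0 members and 170 genes higher and 76 lower, and DESeq2 called 0 members and 1 gene higher and 6 lower. The libraries spread widely: Cdh1 was at 241, 453 and 286 CPM in iPS shUbc9, against 332 and 372 CPM in iPS shCtrl, and Grhl2 at 48.9, 5.64 and 29.5 CPM in iPS shUbc9, against 8.01 and 19.2 CPM in iPS shCtrl. The largest values of Cdh1, Llgl2 and St14 and the smallest of Grhl2 and Epcam were those of shUbc9 replicate 2, the library that stood apart. Without it, 0 members were called too, and the model over all libraries called 2 higher, Cldn3 (log2 fold change 1.32, adjusted p 0.0189) and Mall (2.47, adjusted p 0.0455). Standard errors of the log2 fold changes ran from 0.315 to 0.837, against 0.0425 to 0.435 in ES cells, so these values do not show that the groups were alike.

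In ES cells the set changed mostly downward. In ES siUbc9 over ES siCtrl, 20 of 37 members were called lower (17.8% of all genes tested were), 4 higher (21.3% were), 12 were not called and Ehf had too few counts to be tested. The falls were small, at least 2-fold in 3 members, and the median log2 fold change over the 37 was -0.42, against 0.01 over all genes tested. The summed level of the members was 1357 to 1379 CPM in ES siUbc9 and 1692 to 1704 CPM in ES siCtrl. A model over all libraries called 12 lower and 2 higher. Dsp was at 17, 16.1 and 17.1 CPM in ES siUbc9, against 39.2, 44.8 and 40.8 CPM in ES siCtrl (log2 fold change -1.23 ± 0.0748, adjusted p 3.02e-06). Lad1 was at 3.89, 3.85 and 4.36 CPM in ES siUbc9, against 10, 10.4 and 8.56 CPM in ES siCtrl (-1.17 ± 0.107). Elf3 was at 17.3, 14.9 and 17.8 CPM in ES siUbc9, against 31.9, 35.8 and 35.6 CPM in ES siCtrl (-0.97 ± 0.0905). In all 3 genes every siUbc9 library lay below every siCtrl library (33.4% of all genes tested did).

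Esrp1 was at 49.3, 52.4 and 50.4 CPM in ES siUbc9, against 94.5, 107 and 98.2 CPM in ES siCtrl (-0.89 ± 0.062), and Grhl2 at 88.2 to 93.8 CPM in ES siUbc9 and 155 to 162 CPM in ES siCtrl (-0.71 ± 0.0475). Cdh1 fell less, to 334, 313 and 324 CPM in ES siUbc9, against 422, 440 and 432 CPM in ES siCtrl (-0.32 ± 0.0615, adjusted p 0.00283). In the model over all libraries the calls of Cdh1, Esrp1 and Grhl2 were lost, with adjusted p of 0.116, 0.0661 and 0.182. Mall had the largest fitted fall, -2.16, at under 1 CPM in each library. By role, 4 of 9 adhesion and desmosome genes fell and 3 rose, 6 of 10 tight junction genes fell, 5 of 7 polarity, trafficking and anchoring genes fell, none of the 4 protease and inhibitor genes was called, and 5 of 7 regulators fell and 1 rose. Of all genes tested, 17.8% were called lower and 21.3% higher. Epcam rose, to 281, 261 and 249 CPM in ES siUbc9, against 169, 145 and 155 CPM in ES siCtrl (0.84 ± 0.0725, adjusted p 2.47e-05). The other 3 rises were those of Grhl3 (0.22), Dsc2 (0.48) and Pkp1 (1.06, at under 1 CPM); the calls of Dsc2 and Pkp1 were lost in DESeq2 and without ES siUbc9 replicate 3, and that of Dsc2 also without siUbc9 replicate 2. The call of Grhl3 was lost without ES siCtrl replicate 3 (adjusted p 0.0536), and those of Grhl3 and Dsc2 in the model over all libraries (0.673 and 0.519). Pluripotency markers fell with the set, 5 of 10 being called lower (17.8% of all genes tested were). Their sums were 2979 to 3301 CPM in ES siUbc9 and 3709 to 4015 CPM in ES siCtrl, and their part was not tested.

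The ES response was set against the D7 response in 1 model. It was lower in ES cells in 35 of 37 members (24.3% of all genes tested were called so), higher in 0 (20.1% were), and not called for Pkp1 and Lsr. None was higher at an unadjusted p under 0.05, and DESeq2 called 35 lower and 0 higher. The largest differences were those of Ehf at -4.44 ± 0.581, Lad1 at -3.94 ± 0.18, Mall at -3.78 ± 0.416 and Esrp1 at -3.68 ± 0.2 on the log2 scale. Ehf and Mall were under 1 CPM in ES cells of either group. Of the 36 members higher at D7, 20 were lower, 4 higher and 12 not called or tested on depletion in ES cells. The shares of all genes with these joint calls were not computed. Cells, depletion method and the level before depletion all differ between these 2 comparisons and cannot be told apart.

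Relative to ES siCtrl, levels at D7 differed widely from member to member. The mean of Cdh1 was 20.2% of its ES siCtrl mean in D7 shUbc9 and 7.56% in D7 shCtrl, and that of Epcam 18.9% in D7 shUbc9 and 2.44% in D7 shCtrl. Dsp stood at 540% in D7 shUbc9 and 155% in D7 shCtrl. In 13 members the D7 shUbc9 mean exceeded the means of both iPS shCtrl and ES siCtrl, and these 13 were highest in D7 shUbc9 among all 10 groups: Dsp, Dsc2, Jup, Pkp1 and Pkp3 of desmosomes, Cldn3 and Marveld3 of tight junctions, Rab25, Lad1, Mal2 and Mall, and the regulators Ovol1 and Ehf. For Pkp3 the means were nearly equal, 20.5 CPM in D7 shUbc9 and 19.8 CPM in iPS shCtrl. The share of all genes that met this rule was not computed, so the count of 13 is not read as a trait of the set. Grhl2, in contrast, reached 2.53% of its ES siCtrl mean in D7 shUbc9 and Esrp1 4.52%.

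**Figure D5:**
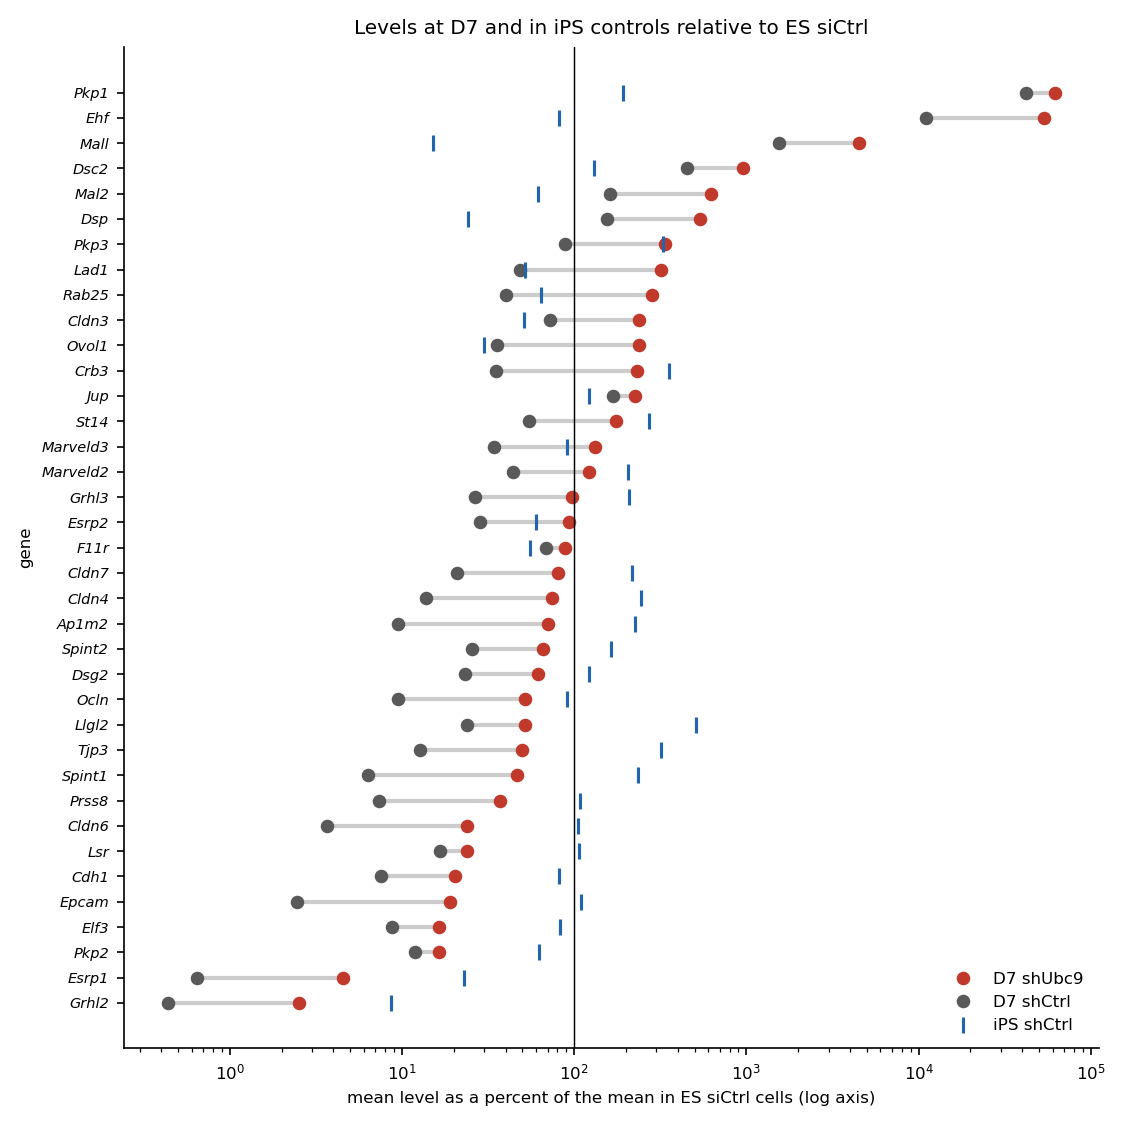
Mean level of each member as a percent of its mean in ES siCtrl (log axis), in D7 shUbc9 (red), D7 shCtrl (grey) and iPS shCtrl (blue ticks), ordered by the D7 shUbc9 value. Every red point lies right of its grey one, and values run from 2.53% for Grhl2 to far above 100% for Pkp1, Ehf and Mall, whose ES siCtrl means were under 1 CPM.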

How the data were processed

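RNA was extracted with TRIzol and RNeasy columns and made into TruSeq stranded total RNA libraries after ribosomal RNA removal, per the labels' protocols. The authors deposited 1 table of whole-number read counts for 26301 genes and 799 repeat families, made on build mm9 with STAR 2.5.0a, featureCounts and DESeq2 named, without roles, in the submitters' processing notes. Whether counting used strand is not stated in the labels, so overlapping and antisense genes cannot be told apart. Members were matched by symbol through the gene identifiers (24191 identifiers had a symbol, 2110 had none). Repeat rows, 7.22% to 24.8% of counts per library, stayed out of library sizes and tests. The 78 ChIP and 11 ATAC samples were not used here. The level of the targeted gene is not reported here.

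Genes passing edgeR's filterByExpr (minimum count 10) were tested with edgeR 4.0.16 (quasi-likelihood test, two-sided, TMM scaling, R 4.3.3), each comparison on its own groups and each difference of responses as an interaction contrast over 4 groups, with Benjamini-Hochberg adjustment over all genes tested. A standard error is the log2 fold change divided by the root of its F statistic. CPM used TMM effective sizes over all 28 libraries. Alternatives were DESeq2 1.42.0, other scalings, no filter, 1 model over all libraries, a replicate block and leaving out each library. The method was tested on simulated data: for D7 it recovered 94% of 2-fold changes and 46.3% of 1.5-fold changes, and for MEF 89.6% and 20.9%. Of the genes called there, 6.43% for D7 and 2.78% for MEF had not been changed. Few genes were changed, none with low counts, and all had the same fixed dispersion. These rates therefore do not carry over to members with few counts or to the many changes in the real libraries. Among 26 replicate pairs none was identical, and the lowest chi-square per gene was 5.48. Equal replicate numbers went with correlated deviations over 0.1 in every pair only for D4 shCtrl over MEF shCtrl (0.181 to 0.621), where the block changed no count.

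The members and lists were chosen with earlier results of these data known. Values per library are given for called members of at least 1 CPM in 1 of the 2 groups, ranked by absolute log2 fold change, up to 8 at D4 and D7, 4 in the other depletion comparisons and differences, and 3 in control comparisons; other members were added after their values were seen.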

Additional observations from a re-analysis of the deposited data

Results flagged for a closer look

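Results are listed here where a test of the difference between 2 responses to Ubc9 depletion was past the threshold (edgeR's quasi-likelihood interaction test, Benjamini-Hochberg adjusted). Between D4 and MEF, the response was higher at D4 in 8 members (17% of all genes tested were) and lower in 4 (19.6% were). These counts were not far from those shares, so they do not set the members apart from all genes. In 1 model over all libraries the response was higher in 2 members and lower in 1. With library sizes alone 1 was lower. The log2 difference was -2.57 ± 0.917 (SE) for Elf3, with an adjusted p of 0.0425 that passed the threshold no longer without any 1 of 7 libraries, and -2.21 ± 0.426 for Dsg2, with an adjusted p of 0.0015. It was 2.05 ± 0.157 for Dsp, with an adjusted p of 2.05e-06, and 1.77 ± 0.366 for Ovol1, with an adjusted p of 0.00235.

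Between D7 and D4, the response was higher at D7 in 27 members (6.04% of all genes tested were). The difference was 2.56 for Esrp1 with an adjusted p of 0.0399, 2.44 for Rab25 with 0.000101, 2.17 for Tjp3 with 0.00359 and 2.10 for Dsg2 with 0.000181. Dsg2 is listed in both tests, but the D4 libraries enter them with opposite signs, so the 2 values are not independent. Between ES and D7, the response was lower in ES cells in 35 members (24.3% of all genes tested were). The differences were -4.44 for Ehf, -3.94 for Lad1, -3.78 for Mall and -3.68 for Esrp1.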

How the results depend on the processing

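Of 3734 values of called members recomputed under the alternatives, 3529 kept their direction and side of the threshold, 205 kept their direction only and 0 reversed. Most of these values, 2066, came from leaving out 1 library, where 117 lost their call. The model over all libraries lost 59 of 278 calls, the most of any single alternative fit. In 1 model over all 28 libraries the members called higher were 0 in MEF, 2 in iPS cells, 2 in ES cells, 16 in D7 shCtrl over D4 shCtrl, 2 for D4 against MEF responses and 10 for D7 against D4 responses, and those lower were 12 in ES cells and 1 for D4 against MEF responses. DESeq2 called 2 members higher in ES cells. With library sizes alone, 1 member was lower for D4 against MEF responses. The cause of these shifts was not tested.

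Leaving out 1 library in turn, members called higher numbered 0 to 2 in MEF, 2 to 4 in ES cells and 5 to 8 for D4 against MEF responses, and members called lower numbered 1 to 2 in ES siCtrl over MEF shCtrl and 1 to 4 for D4 against MEF responses. The lone library left in an arm is assumed to vary like the others. ES siCtrl over MEF shCtrl had 2 lower without MEF shCtrl replicate 2 or ES siCtrl replicate 2.

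With the replicate number as a block, members called higher numbered 2 in MEF, 20 at D4, 36 at D7, 0 in iPS cells and 4 in ES cells, and 3 were lower at D4 and 21 in ES cells. For D7 against D4 responses 24 were higher with the block. Outside D4 shCtrl over MEF shCtrl, deviations of same-numbered libraries were not correlated over 0.1 in every pair. In ES cells these correlations were 0.0994 to 0.311, just short of that rule, and in D7 shCtrl over D4 shCtrl -0.141 to 0.685. Whether the numbers pair the libraries there is therefore not settled.

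With library sizes alone the share of higher calls among all genes was 52.1% against 63.4% in MEF, 62.2% against 49.8% for D4 shCtrl over MEF shCtrl, 39.4% against 58% for D7 shCtrl over D4 shCtrl, 62.2% against 46.4% for D4 against MEF responses, 72.9% against 49.2% for D7 against D4 responses and 32.4% against 45.2% for ES against D7 responses. The median of all genes then shifted to 0.22 for iPS shCtrl over D7 shCtrl, 0.27 for ES siCtrl over MEF shCtrl and -0.20 for ES against D7 responses. Low counts kept 15 members untested in MEF.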
